A study of Mus musculus with 2 samples.

Results

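The immunity-related GTPases (IRGs) are a family of interferon-induced GTPases, and 7 of them were followed here in tumor mononuclear phagocytes (TMPs): Iigp1, Ifi47, Tgtp1 and Tgtp2, which belong to the effector branch, and Irgm1, Irgm2 and Igtp, which belong to the regulatory branch. They were taken by gene symbol and make up 7 of the 27998 genes listed for each library. Both libraries held single-cell 3′ transcript counts of MerTk+ CD64+ TMPs sorted from intradermal B16F0 melanomas, 1 library from Fcmr-/- mice and 1 from Fcmr+/+ mice, all C57Bl/6, with matched littermates as controls. Fcmr is the receptor for the Fc part of IgM, and the Fcmr-/- animals lacked it in every cell type and not in phagocytes alone. The design asked how TMPs of the genotypes differ. No source used here names the number of mice or tumors behind a library, their age, or when the cells were processed.

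IRGs are best known from infected macrophages. Effector IRGs (Iigp1, also called Irga6; Ifi47, Irgd; Tgtp1 and Tgtp2, Irgb6) assemble on vacuoles that hold intracellular parasites and break them, while the regulators (Irgm1; Irgm2; Igtp, also called Irgm3) sit on the membranes of the cell itself and hold the effectors inactive there. Interferon gamma is their classical inducer, and they act together with guanylate-binding proteins and with the ATG8 conjugation machinery shared with autophagy.

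All members but Iigp1 lie on chromosome 11 of the mouse genome (GRCm38, GENCODE M21 annotation). Irgm1 (chr11:48861968-48871683, minus strand), Tgtp1 (chr11:48985327-48994172, minus), Tgtp2 (chr11:49057194-49064206, minus) and Ifi47 (chr11:49076587-49096974, plus) are neighbors. Further along the same chromosome, Igtp (chr11:58199556-58207591, plus) overlaps Irgm2 (chr11:58199618-58222782, plus) on 1 strand.

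Promoter letters are shown because the family is known for interferon-response elements. RefSeq windows (GRCm38.p6) from 250 bases before to 50 after the start were found for 6 of the 7 members, all but Iigp1. The core of the interferon-stimulated response element (ISRE), GAAANNGAAA on either strand, was in 5 of these 6 windows and in 3.44% of all 32851 RefSeq windows. The gamma-activated site (GAS), TTCNNNGAA on either strand, was in 4 of the 6 and in 8.30% of all windows, and 0.454% of all windows held both. Capitals below mark every ISRE core and GAS match, read 5′ to 3′ along the gene.
Igtp, chr11:58199498-58199555, plus strand: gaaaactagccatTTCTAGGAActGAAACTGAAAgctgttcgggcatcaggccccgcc
Irgm2, chr11:58214889-58214946, plus strand: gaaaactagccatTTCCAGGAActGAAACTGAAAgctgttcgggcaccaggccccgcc
Tgtp1, chr11:48992290-48992347, minus strand: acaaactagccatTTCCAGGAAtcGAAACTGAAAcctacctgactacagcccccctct
Tgtp2, chr11:49064249-49064306, minus strand: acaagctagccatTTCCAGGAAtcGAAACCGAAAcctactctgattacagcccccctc
Irgm1, chr11:48871428-48871457, minus strand: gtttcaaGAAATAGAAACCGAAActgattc
In Igtp, Irgm2, Tgtp1 and Tgtp2 the GAS ended 2 bases before the ISRE core, and the core began at -34, -64, -77 and -70 bases from the RefSeq start, respectively. Compared position by position without gaps, Igtp and Irgm2 had the same base at 56 of the 58 positions shown, and Tgtp1 and Tgtp2 at 43 of 58. After the ISRE core the Tgtp letters are shifted against each other, so 43 understates how alike they are. Irgm1 held 2 ISRE cores that overlap by 4 bases and no GAS. The stretches shown for Irgm1, Irgm2 and Tgtp1 lie inside the spans GENCODE gives these genes, and those for Igtp and Tgtp2 lie outside theirs. Neither motif was in the Ifi47 window. These are matches of letters, not sites of binding.

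Fcmr itself was close to the detection limit and could not check the labels: its transcript gave 7 unique molecular identifiers (UMIs, 1 per captured transcript) in the Fcmr+/+ library and 6 in the Fcmr-/- library. After the study's limits on cells, 6352 Fcmr+/+ cells (128408544 UMIs, median 17973.5 per cell) and 7999 Fcmr-/- cells (124630621 UMIs, median 12911 per cell) remained. The sort markers were detected in both, with Mertk at 62.8 and 48.7 and Fcgr1, which encodes CD64, at 250.4 and 394 counts per 1000000 UMIs (CPM) in Fcmr+/+ and Fcmr-/- TMPs. The libraries had 73 barcodes in common. With 1 library per genotype no test was possible, so intervals below are 95% counting intervals (exact Poisson for CPM, exact Clopper-Pearson for shares, exact conditional for ratios), and the spread between mice is unknown.

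All 7 IRGs had a higher level in Fcmr-/- than in Fcmr+/+ TMPs. Summed over the family, the level was 63.0 CPM (61.7 to 64.4) in Fcmr+/+ and 236 CPM (233 to 239) in Fcmr-/- cells, a 3.75-fold difference with a counting interval of 3.66 to 3.84. Among the 5 members with at least 5 CPM in either library, the effector Iigp1 stood apart with a ratio of 22.7. The ratios of the 3 regulators lay between 2.26 and 3.51, and that of the effector Ifi47, at 2.76, lay among them. This minimum of 5 CPM left 8701 genes, whose median log2 ratio was 0.0023. Of these genes 86, or 0.988%, were at least 2-fold higher in Fcmr-/- cells, and 31, or 0.356%, at least 2-fold lower. The 5 IRGs above the minimum were all among the 86, and Tgtp1 and Tgtp2 were under it. Iigp1 and Irgm2, at 3.19 and 4.88 CPM in Fcmr+/+ cells, reached the minimum only in the Fcmr-/- library. Their place among the 86 is thus not independent of the minimum, as for any gene that entered this way.

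Among the effectors, Iigp1 lies apart from the rest of the family, at chr18:60376027-60392634 on the plus strand, and no annotated gene overlaps it. It gave 410 UMIs or 3.19 CPM (2.89 to 3.52) in the Fcmr+/+ library and 9051 UMIs or 72.6 CPM (71.1 to 74.1) in the Fcmr-/- library. Its log2 ratio of 4.51 (4.36 to 4.65) ranked 3 among the 8701 genes, counted from the highest. Ifi47 was at 23.9 CPM (23.1 to 24.8) in Fcmr+/+ and 66.0 CPM (64.6 to 67.5) in Fcmr-/- TMPs, a log2 ratio of 1.46 (1.40 to 1.53) with a rank of 39. Iigp1 thus went from the fifth place among the IRGs in Fcmr+/+ cells to the first in Fcmr-/- cells, and Ifi47 from the first to the second. Each captured molecule counts once, by its 3′ end, so these levels carry no correction for length, and neighbors in both orders differed beyond their counting intervals.

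The Tgtp genes were near the floor. Tgtp2 gave 33 UMIs (0.257 CPM) in Fcmr+/+ and 280 UMIs (2.25 CPM) in Fcmr-/- cells, a log2 ratio of 3.13 (2.60 to 3.70), and Tgtp1 gave 1 and 34 UMIs, a ratio of 35.0 with a counting interval of 5.88 to 1424. With 1 CPM added to both libraries, these log2 ratios were 1.37 for Tgtp2 and 0.34 for Tgtp1. Both counts are uncertain in a further way. Of the 90-base windows in the last 500 bases of their annotated transcripts, 74.0% for Tgtp1 and 65.9% for Tgtp2 occurred letter for letter in each other or in Gm12185, so that reads from there cannot be given to 1 gene. For Ifi47 this share was 1.76%, with Olfr56, and for the other members it was 0.

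Of the regulators, Igtp differed most, from 10.7 CPM (10.1 to 11.3) in Fcmr+/+ to 37.6 CPM (36.5 to 38.7) in Fcmr-/- TMPs, with a log2 ratio of 1.81 (1.73 to 1.90) with a rank of 30. Irgm2 was at 4.88 CPM (4.50 to 5.27) and 12.0 CPM (11.4 to 12.6), with a log2 ratio of 1.30 (1.17 to 1.44). For Irgm1 the levels were 20.1 CPM (19.3 to 20.9) and 45.4 CPM (44.2 to 46.6), with a log2 ratio of 1.18 (1.11 to 1.24). Irgm1 and Irgm2, at ranks 62 and 50 of the 8701 genes, were the closest of the family to the 2-fold limit.

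**Figure D1:**
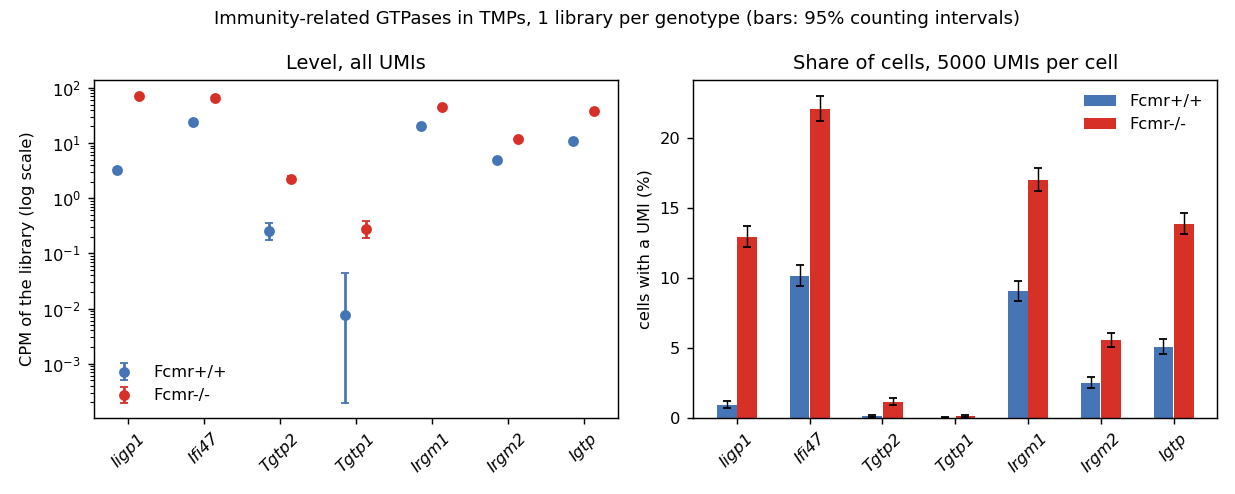
Level of each IRG in CPM on a log axis (left) and share of cells with a UMI of it after every cell was thinned to 5000 UMIs (right), in the Fcmr+/+ (blue) and Fcmr-/- (red) library, with 95% counting intervals. All 7 genes lie higher in Fcmr-/- cells, and Iigp1 moves from 3.19 to 72.6 CPM.

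More cells held IRG transcripts, and more per cell. With every cell thinned to 5000 UMIs, which left out none, 22.1% of Fcmr+/+ and 42.5% of Fcmr-/- TMPs had at least 1 IRG UMI. For Iigp1 the share was 0.945% (0.722 to 1.21) in Fcmr+/+ and 12.9% (12.2 to 13.7) in Fcmr-/- cells, and in the unthinned counts it was 2.69% and 22.1%. Cells positive for Iigp1 held on average 1.47 and 2.25 of its UMIs at the thinned depth, and the cell with the most had 26 in Fcmr+/+ and 70 in Fcmr-/- TMPs before thinning.

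Other members were spread more evenly over cells. The thinned shares in Fcmr+/+ and Fcmr-/- cells were 10.2% and 22.1% for Ifi47, 9.05% and 17.0% for Irgm1, 5.07% and 13.9% for Igtp, and 2.52% and 5.58% for Irgm2. Tgtp2 was seen in 0.110% and 1.16% of cells. Tgtp1 was seen in 0 of 6352 Fcmr+/+ cells, where the exact upper limit is 0.0581%, and in 0.138% of Fcmr-/- cells. The sort holds no cell type known to lack IRGs, so the share that free RNA gives was not measured. The lowest share of Iigp1-positive cells in any cluster of the Fcmr-/- library was 0.546%, in cluster 11 below.

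Transcripts listed as markers of other cell types differed too and are given beside this result. The 7 detected genes of a T and NK cell list (Cd3d, Cd3e, Cd3g, Cd8a, Nkg7, Gzmb, Ncr1) summed to 0.942 CPM in Fcmr+/+ and 15.4 CPM in Fcmr-/- TMPs, with all 7 higher in the latter and Ncr1 at 0 in the former. Without the 17 Fcmr+/+ and 113 Fcmr-/- cells that held a UMI of this list, the log2 ratio of the whole family was 1.90 and that of Iigp1 4.50, against 1.91 and 4.51 with them. The 6 genes of a melanoma list stood at 40.6 and 64.1 CPM, and without the cells holding 1 of their UMIs (2577 and 3565 cells) the family's log2 ratio was 1.68 and that of Iigp1 3.87.

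The neutrophil list (S100a8, S100a9, Retnlg, Csf3r, Mmp8) stood at 55.6 CPM in Fcmr+/+ and 121 CPM in Fcmr-/- TMPs, with all 5 genes higher in the latter. Its UMIs were in 3101 of the 6352 Fcmr+/+ and 4530 of the 7999 Fcmr-/- cells, so the list may not measure other cells alone. Without the cells that held 1 of its UMIs, the log2 ratio was 1.81 for the family and 4.66 for Iigp1. The dendritic cell list was at 9.09 and 14.7 CPM, with all 9 genes higher, and without its 280 and 369 cells the ratios were 1.92 and 4.58. Of the 6 genes of the fibroblast and endothelium list 4 were higher, the sums were 7.06 and 12.4 CPM, and without its 711 and 1135 cells the ratios were 1.92 and 4.66. The B cell list was at 12.4 and 10.4 CPM, with 1 of 5 genes higher. Monocyte genes, which young TMPs can carry themselves, summed to 392 and 585 CPM with 6 of 7 higher, and their part in the result was not tested. In none of these 5 lists was a gene at 0 in either library. The leaving out of neutrophil, dendritic, fibroblast and endothelial UMIs was chosen after the data were seen.

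To see which TMPs carried the IRGs, the libraries were joined and their cells grouped by variable genes from which the 7 members had been taken out. Other interferon genes stayed in, so the clusters are not independent of genes that move with the IRGs. Before the members were taken out, 53 of the 84 listed interferon genes, 5 of them members, were among the 1336 variable genes. There were 11 clusters, called here by number and leading genes. Cluster 5, with 5 mitosis markers among its 10 leading genes (Top2a, Ube2c and Cenpf first), was called dividing-like. Cluster 4 (Ly6c2, Ly6i, Ly6a, Gbp4, Il18bp) and cluster 7 (Cxcl9, Serpina3g, AW112010, Gbp2, Ccl8) held 94.9% and 89.6% Fcmr-/- cells, so that library and cluster cannot be fully told apart there.

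IRG levels spanned a wide range over the clusters of both libraries. From the lowest to the highest cluster the summed family spanned 26.8 to 415 CPM in Fcmr+/+ cells, 15.5-fold, and 35.7 to 574 CPM in Fcmr-/- cells, 16.1-fold. Cluster 9, led by the antiviral genes Rsad2, Ifit1 and Ifit3, was the highest in both libraries. There 76.9% of the 234 Fcmr+/+ and 83.6% of the 634 Fcmr-/- cells held an IRG UMI at 5000 UMIs. The lowest were cluster 6 in Fcmr+/+ cells, led by hemoglobin genes and by Slc2a1 and Egln3 of the hypoxia list, and cluster 11 in Fcmr-/- cells, led by Adm, Pdgfa and Bhlhe41.

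The members did not share 1 order over the clusters. Ifi47, Irgm1, Igtp and Irgm2 each had their highest level in cluster 9 in both libraries: Ifi47 at 186 and 223 CPM, Irgm1 at 122 and 130 CPM, Igtp at 65.4 and 96.7 CPM, and Irgm2 at 26.1 and 35.0 CPM in Fcmr+/+ and Fcmr-/- cells. Iigp1 in contrast was highest in cluster 4 of the Fcmr+/+ library, at 44.1 CPM from 80 cells, and in cluster 7 of the Fcmr-/- library, at 182 CPM from 1177 cells. The Fcmr+/+ value of cluster 4 rests on 69 UMIs (34.3 to 55.8 CPM). Its interval overlaps that of cluster 7, at 32.5 CPM (25.9 to 40.4), so their order in Fcmr+/+ cells is open. For Igtp and Irgm2 the Fcmr+/+ intervals of clusters 9 and 4 overlap too. In cluster 9 Iigp1 stood at 14.8 and 83.2 CPM. Of all Iigp1 UMIs of the Fcmr-/- library, 47.4% lay in cluster 7, 26.1% in cluster 4, 15.6% in cluster 5 and 6.04% in cluster 9.

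**Figure D2:**
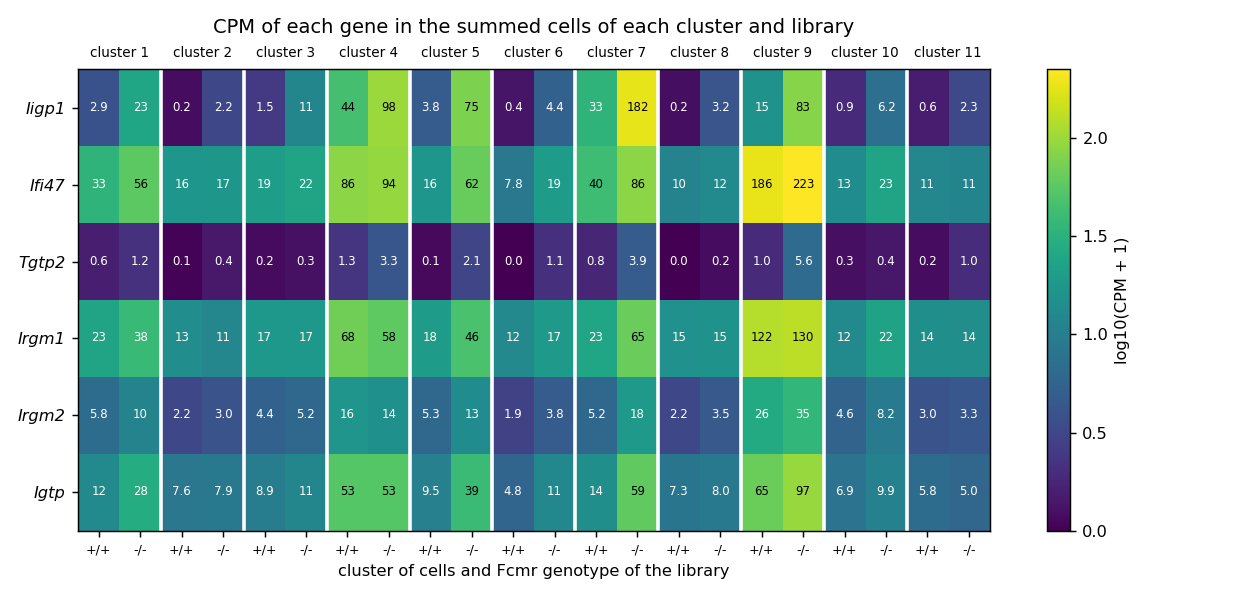
CPM of 6 IRGs (rows) in the summed cells of each cluster and library (columns, +/+ and -/- side by side), with color on a log10(CPM + 1) scale and the CPM printed in each field. Cluster 9 is bright for Ifi47, Irgm1 and Igtp in both libraries, while Iigp1 peaks at 182 CPM in Fcmr-/- cells of cluster 7.

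Iigp1 was higher in Fcmr-/- cells in each of the 11 clusters, with a counting interval of the log2 ratio above 0 in all of them. The share of all genes with such intervals was not counted. The ratio was smallest in cluster 4, at a log2 of 1.16 (0.81 to 1.53), and largest in the dividing-like cluster, where Iigp1 went from 3.83 to 75.5 CPM, a log2 ratio of 4.30 (3.98 to 4.64). Clusters with little Iigp1 had the same direction in their summed UMIs. In cluster 3, led by Tfrc, Gas6 and Cnrip1, its level was 1.49 CPM in Fcmr+/+ and 10.9 CPM in Fcmr-/- cells, and in cluster 1, led by Ccl17, Ifitm1 and Il1r2, it was 2.88 and 22.9 CPM. Clusters 2, 6 and 8 rested on 3, 3 and 1 Fcmr+/+ UMIs of Iigp1, and their ratios have wide intervals. Cluster 11 rested on 6 Fcmr+/+ and 7 Fcmr-/- UMIs, and cluster 10 on 7 and 15. In cluster 11 the share of Iigp1-positive cells at 5000 UMIs was 0.625% in Fcmr+/+ and 0.546% in Fcmr-/- cells. The intervals count UMIs, not cells, and over a whole library 1 cell held up to 26 (Fcmr+/+) and 70 (Fcmr-/-) Iigp1 UMIs. What free RNA adds to such low levels was not measured.

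The other IRGs differed between genotypes in some clusters and not in others. The interval lay above 0 for Ifi47 in 6 of 11 clusters and for Irgm1, Irgm2 and Igtp in 5 each, and below 0 in none. How many of all genes have such an interval was not counted, and intervals from UMIs alone are narrow. Over all cells the interval of Jak1, at a log2 ratio of 0.06 (0.03 to 0.09), also lay above 0. Clusters with high levels differed in how far the genotypes lay apart. In cluster 9, the highest in both libraries, the log2 ratio was 0.09 (-0.08 to 0.27) for Irgm1, 0.26 (0.12 to 0.40) for Ifi47 and 0.56 (0.33 to 0.80) for Igtp. In cluster 4 it was -0.24 (-0.52 to 0.06) for Irgm1, -0.01 (-0.33 to 0.33) for Igtp and 0.13 (-0.12 to 0.39) for Ifi47, and Iigp1 alone of the 5 genes above 5 CPM was at least 2-fold higher there, against 1.77% of all genes in that cluster. Cluster 7, whose family level of 414 CPM in Fcmr-/- cells lay between those of clusters 9 and 4, had larger log2 ratios, at 1.47 (1.09 to 1.87) for Irgm1 and 1.83 (1.66 to 2.00) for the family.

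In 2 clusters every measurable member was at least 2-fold higher. In the dividing-like cluster all 5 IRGs above 5 CPM were at least 2-fold higher in Fcmr-/- cells, against 1.43% of the 8941 genes above 5 CPM there. Of the 5, Iigp1, at 3.83 CPM in Fcmr+/+ cells, reached 5 CPM only in the Fcmr-/- cells. Irgm1 went from 18.5 to 46.3 CPM, Igtp from 9.51 to 39.0 CPM and Ifi47 from 16.2 to 62.4 CPM in its 722 Fcmr+/+ and 736 Fcmr-/- cells. T and NK cell transcripts stood at 0.0923 CPM in its Fcmr+/+ cells and at 63.3 CPM in its Fcmr-/- cells, the highest of the 11 clusters in that library. Without its 2 and 18 cells that held such a UMI, the family's log2 ratio there was 2.16, as it was with them.

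In cluster 7 too all 5 IRGs above 5 CPM were at least 2-fold higher, against 2.16% of genes. Irgm1 was at 23.4 and 64.7 CPM, Igtp at 13.9 and 58.8 CPM and Iigp1 at 32.5 and 182 CPM in its 136 Fcmr+/+ and 1177 Fcmr-/- cells. The Fcmr+/+ values rest on few cells, such as 35 UMIs for Igtp. Elsewhere the counts of members at least 2-fold higher were 2 of 5 in cluster 1 (0.605% of genes), 1 of 5 in cluster 3 (0.252%), 2 of 3 in cluster 6 (1.31%), 2 of 6 in cluster 9 (1.98%) and 1 of 5 in cluster 10, led by Amica1, Fbxo32 and Acp5 (2.32%). Of the members counted, Iigp1 in clusters 1, 3 and 10, Igtp in cluster 6 and Tgtp2 in cluster 9 reached 5 CPM only in Fcmr-/- cells. For Iigp1 in clusters 3 and 10 and Tgtp2 in cluster 9, Fcmr+/+ levels were so low that this fixed a 2-fold difference in advance. None of the 3 measurable members passed in cluster 2 (led by Cxcl3, Csf3 and Il1a; 0.785%), cluster 8 (Mfge8, Ctsk and Gpnmb; 1.14%) or cluster 11 (1.29%), and no member was 2-fold lower in any cluster.

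**Figure D3:**
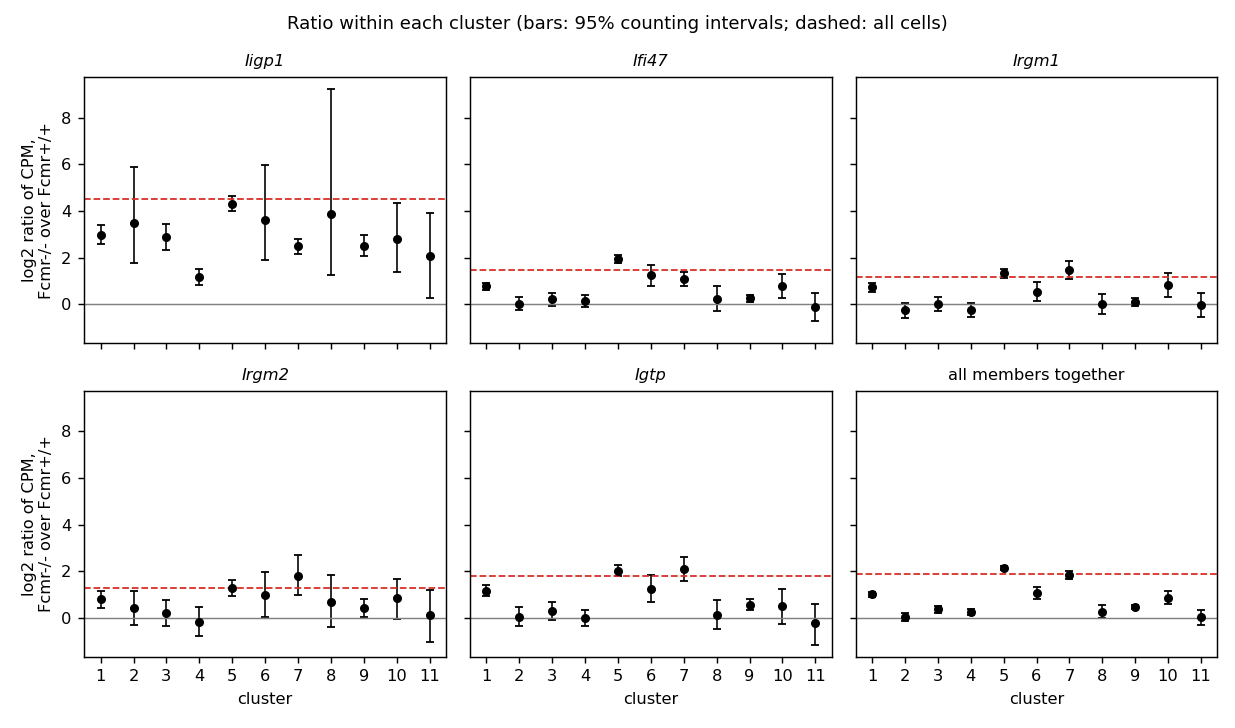
Log2 ratio of CPM, Fcmr-/- over Fcmr+/+, within each of the 11 clusters for 5 IRGs and for the 7 together, with 95% counting intervals; the solid line is 0 and the dashed line the ratio over all cells. Iigp1 lies above 0 in every cluster, while in clusters 2, 3, 4, 8 and 11 the intervals of Irgm1, Irgm2, Igtp and Ifi47 all include 0.

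The ratios were smaller when the makeup of clusters was held equal. The cluster levels of the Fcmr-/- library were weighted by each cluster's share of the UMIs, not of the cells, of the Fcmr+/+ library. The ratio of the whole family was then 2.01-fold instead of 3.75-fold. By member it was 8.56-fold for Iigp1, 1.98-fold for Igtp, 1.66-fold for Ifi47, 1.65-fold for Irgm2 and 1.44-fold for Irgm1. Without clusters 4 and 7 altogether, the log2 ratio was 1.39 for the family and 3.90 for Iigp1. The ratio of Iigp1 over all cells exceeded that within every cluster. The cluster shares themselves depend on genes that differ between the libraries, and this weighting was chosen after the data were seen. It does not hold makeup equal inside a cluster. In the dividing-like cluster, where the Iigp1 ratio was largest, a list of MHC class II genes stood at 2548 CPM in Fcmr+/+ and 5393 CPM in Fcmr-/- cells.

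Most cells with an IRG UMI held 1 member, but the more abundant IRGs shared cells more often than unrelated genes would. At 5000 UMIs per cell, 17.5% of Fcmr+/+ and 23.4% of Fcmr-/- TMPs held UMIs of exactly 1 member. UMIs of 3 or more were held by 1.01% (64 cells) and 8.21% (657 cells), and the most in a cell was 4 and 6. What the higher levels alone would give was not tested. Iigp1 and Ifi47 were both seen in 506 Fcmr-/- cells, against 229 if unrelated. In Fcmr-/- cells with an Iigp1 UMI, 48.9% also had Ifi47, against 18.1% of the cells without Iigp1. For Irgm1 these shares were 38.3% and 13.9%, and for Igtp 34.9% and 10.8%. The 60 Fcmr+/+ cells with Iigp1 held Ifi47 in 35.0% of cases, against 9.92% of the rest.

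Over cells of a library, the 10 pairs among the 5 more abundant IRGs had a median Pearson correlation of 0.103 in Fcmr+/+ (0.0422 to 0.219) and 0.243 in Fcmr-/- (0.145 to 0.296). Within clusters the medians were lower, at 0.0243 and 0.0932. Cells of a library share its preparation and depth, and thinned counts this sparse keep correlations low, so these values are descriptions only.

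**Figure D4:**
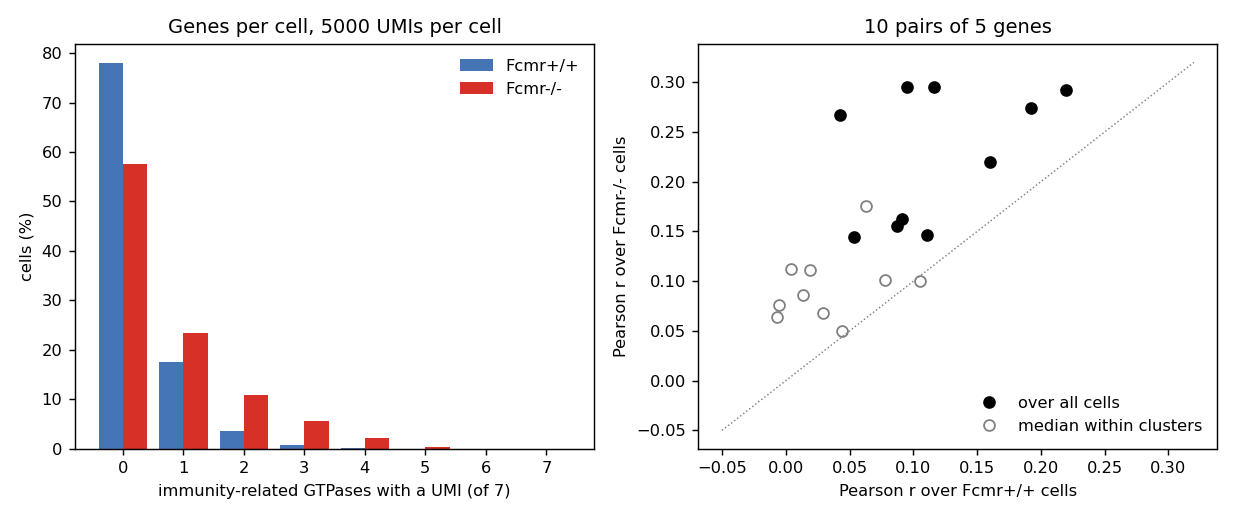
Number of IRGs with a UMI per cell at 5000 UMIs per cell, as percent of cells of each library (left), and Pearson correlation over cells of 10 pairs of IRGs in Fcmr+/+ (x axis) against Fcmr-/- TMPs (y axis), over all cells (filled) or as the median within clusters (open) (right). The filled points all lie above the dotted line of equal values, with medians of 0.103 and 0.243.

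The genes whose pattern over cells was most like that of the summed IRGs, by the lower of the correlations in the libraries, were Rsad2 (0.363), Isg15 (0.360), Ifit3 (0.339), Rtp4 (0.317), Ifit2 (0.304), Ifi204 (0.294), Ifit1 (0.294), Pyhin1 (0.288), Gbp2 (0.282) and Mnda (0.280). The median over the 5031 genes compared was -0.0106, over 6352 and 7999 cells. Rsad2 encodes viperin and the Ifit genes encode RNA-binding antiviral proteins, while Gbp2 is a guanylate-binding protein. Over the 22 groups made by cluster and library the closest genes included Gbp7, with a correlation of 0.969, and Gbp2 (0.957), and 2 of the 10 genes above were kept among the first 10.

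Iigp1, Ifi47 and Irgm1 differed in how closely they followed Ifit3 and Cxcl9. Iigp1 had a correlation of 0.268 in Fcmr+/+ and 0.361 in Fcmr-/- cells with Gbp2 and of 0.179 and 0.275 with Cxcl9, and lower ones with Ifit3, at 0.0858 and 0.106. Ifi47 had 0.336 and 0.338 with Ifit3 and 0.060 and 0.129 with Cxcl9. Irgm1 resembled Ifi47 in this, at 0.273 and 0.231 with Ifit3 and 0.0640 and 0.147 with Cxcl9. Gbp2 did not set Iigp1 apart in this way: its correlation was 0.227 and 0.320 with Ifi47 and 0.163 and 0.261 with Irgm1.

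The rest of the pathway was described by lists, each read against the median log2 ratio of 0.0023 over all 8701 genes and the 0.988% of them at least 2-fold higher. The 5 IRGs above the minimum had a median of 1.46. Of 9 further IRG relatives in the files 3 passed the minimum, and 1 of those was at least 2-fold higher. This was Gm4951, at 1.36 CPM in Fcmr+/+ and 10.1 CPM in Fcmr-/- cells, a log2 ratio of 2.89 (2.66 to 3.13). It reached the minimum only in Fcmr-/- cells, which fixed a 2-fold difference in advance. The other two were 9930111J21Rik2, at 20.7 and 28.7 CPM, and Irgq, a divergent relative, at 8.38 and 6.33 CPM.

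Relatives under the minimum gave fewer UMIs. Gm4841 had 0 in Fcmr+/+ and 48 in Fcmr-/- cells, and the counting interval of its log2 ratio began at 3.69. With a floor of 3 counts put in for the 0, its ratio was 16.5-fold. F830016B08Rik had 47 and 244 UMIs, Gm12185 had 19 and 118, Gm5431 had 385 and 599, 9930111J21Rik1 had 85 and 91, and Irgc1, known from testis, had 158 and 164. Gm12185 shares 3′ sequence with the Tgtp genes, so its count is uncertain as theirs are.

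Guanylate-binding proteins, which work beside IRGs on parasite vacuoles, resembled them. All 8 above the minimum were at least 2-fold higher in Fcmr-/- TMPs, with a median log2 ratio of 2.17. Among them Gbp2b, Gbp4, Gbp5 and Gbp8 were under 5 CPM in Fcmr+/+ cells and reached the minimum only in Fcmr-/- cells. For Gbp2b, Gbp4 and Gbp8 this fixed a 2-fold difference in advance. Gbp2b went from 0.428 to 7.69 CPM, Gbp4 from 2.24 to 29.5 CPM and Gbp2 from 21.4 to 139 CPM. At the low end, Gbp9 had a log2 ratio of 1.10 (0.98 to 1.22) and Gbp5 of 1.34 (1.19 to 1.49).

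The genes that carry the interferon gamma signal differed less, with a median log2 ratio of 0.22 over the 11 above the minimum. Of the receptor chains, Ifngr1 was at 126 CPM in Fcmr+/+ and 107 CPM in Fcmr-/- cells and Ifngr2 at 102 and 105 CPM, and of the kinases Jak1 was at 138 and 144 CPM and Jak2 at 20.6 and 22.3 CPM. The feedback inhibitor Socs1 had a log2 ratio of 0.89 (0.78 to 0.99) and Socs3 of -0.32 (-0.35 to -0.29). Values for the transcription factors Irf1 and Irf8 were 0.27 and 0.22, and for the phosphatases Ptpn2 and Ptpn6 0.29 and 0.64. Ifng, the ligand, gave 1 UMI in 1 Fcmr+/+ cell and 41 UMIs in 9 Fcmr-/- cells. Of these 41, 40 lay in 8 cells that also held a UMI of the T and NK cell list.

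Type I interferon signaling had a median log2 ratio of 0.19 over 9 genes. Irf7 was at 69.7 CPM in Fcmr+/+ and 139.5 CPM in Fcmr-/- cells, just past the 2-fold limit, and Ifnb1, which encodes interferon beta, was lower, at 10.3 and 3.97 CPM (log2 ratio -1.38, -1.53 to -1.23). Between them lay Stat2 at 0.87, Usp18 at 0.83, Irf9 at 0.42, Ifnar1 at 0.19, Irf3 and Tyk2 at 0.17 and 0.16, and Ifnar2 at -0.19.

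Targets of interferon gamma were all higher in Fcmr-/- TMPs, 16 of 16, of which 6 at least 2-fold, with a median log2 ratio of 0.85. Of those 6, Serpina3g, Batf2 and Ciita reached the minimum only in Fcmr-/- cells, which for Ciita fixed a 2-fold difference in advance. Serpina3g was at 2.77 and 38.4 CPM, Cxcl9 at 14.5 and 186 CPM and Nos2 at 8.67 and 40.4 CPM in Fcmr+/+ and Fcmr-/- cells, and Wars (0.24) and Cd74 (0.53) had the smallest log2 ratios. Type I interferon targets had a median of 0.57, with 16 of 17 higher and 2 at least 2-fold. Their ends were Ifi44 (1.81), Oas3 (1.06) and Oas1a (0.94) at the top and Oasl1 (0.19) and Ifit1 (-0.15) at the bottom. Ifi44 reached the minimum only in Fcmr-/- cells, which fixed a 2-fold difference in advance.

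A list of ATG8 conjugation and targeting genes did not share the pattern. It covers the conjugation machinery, which IRGs and guanylate-binding proteins need to reach their vacuoles. It also holds Ulk1, Becn1, Sqstm1, Traf6 and Trim21, which are not part of that machinery. None of the 15 listed genes differed 2-fold, 5 were higher and 10 lower in Fcmr-/- cells, and the median log2 ratio was -0.05. The highest were Trim21, a ubiquitin ligase, at 0.54, Atg3 at 0.04 and Atg7 at 0.02, and the lowest were Ulk1 at -0.52 and Traf6 at -0.42.

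**Figure D5:**
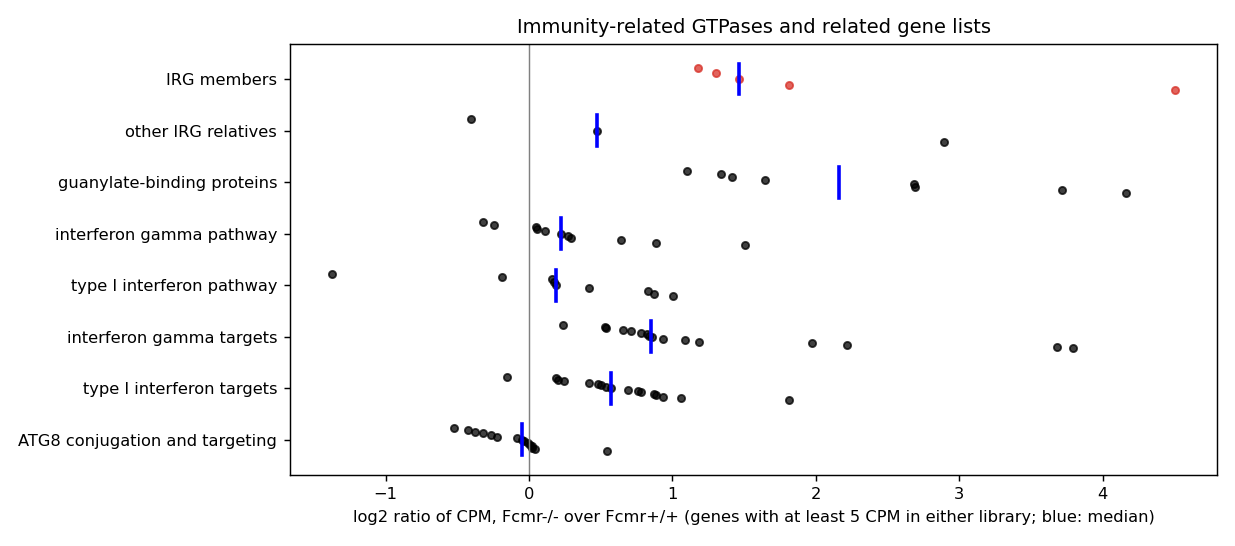
Log2 ratio of CPM, Fcmr-/- over Fcmr+/+, for the 5 IRGs (red) and the genes of 7 related lists (black) with at least 5 CPM in either library, with the median of each list as a blue bar. IRGs and guanylate-binding proteins lie above 1, and the ATG8 conjugation and targeting list is centered near 0.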

How the data were processed

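Sorted TMPs were run as 1 droplet library per genotype on a 10x Chromium instrument with 3′ chemistry. Per the labels and the study's methods, the authors aligned reads to GRCm38 (mm10) with Cell Ranger and deposited whole-number UMI counts for every gene and barcode, without normalization; the counting of reads that match several genes was not given in the sources used here. The study's own limits (from 200 to 7000 genes, and no more than 30% of UMIs from mitochondrial genes) left 14351 of 14409 barcodes. Its methods give the same cell numbers.

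The members and the gene lists were chosen with earlier results of these data known. Deposited counts were summed per library or cluster and divided by the total (CPM). For shares and correlations each cell was thinned to 5000 UMIs, and correlations used log(1 + count). Clusters came from Seurat 5.3.0 in R 4.3.3 (scale factor 10000, variable genes without the 7 members, 10 principal components, 30 neighbors, resolution 0.8). Clusters were named only from listed markers. Intervals cover counting error only, and the ratio code was tested on simulated data. Doublets were limited by the 7000-gene bound alone: Scrublet (scanpy 1.11.5) called 0 in each library and so did not work. Named were the members, all listed relatives and signaling genes, the 3 highest and 2 lowest of each other list, the 10 genes most alike, and genes that lead a cluster. List genes that were 2-fold higher and reached the minimum only in Fcmr-/- cells were named too. For likeness genes had at least 20 CPM in both libraries. Alternatives concerned scaling, filters, depth, other cell types and clustering. Of the listed genes, Gm12250, Gbp11, Cxcl11 and Trbc2 were matched by no symbol, and 1 listed signaling gene is not reported here.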

Additional observations from a re-analysis of the deposited data

Results flagged for a closer look

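The T and NK cell list stood at 15.4 CPM in the Fcmr-/- library, against 0.942 CPM in the Fcmr+/+ library, although the sort took MerTk+ CD64+ cells. It is named here because these transcripts are not those of the IRGs and exceeded their level in the control library. The 113 Fcmr-/- cells with a UMI of the list had 291 CPM of summed IRGs, and the 7886 without had 235 CPM. Among the 17 Fcmr+/+ cells with such a UMI the level was 118 CPM, with Iigp1 at 0 UMIs, and among the rest 62.9 CPM. The part of these cells in the level of IRGs in other cells was not tested.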

How the results depend on the processing

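The log2 ratio of the summed IRGs (1.91) kept its sign under all 19 alternatives, as did that of each member where a ratio could be formed. It was 1.70 as a mean over cells, 1.82 with at most 5000 genes per cell, 1.68 at 5000 UMIs per cell, 1.68 without cells holding a melanoma UMI, and 0.77 with clusters weighted equally. Of the alternatives chosen after seeing the data, it was 1.00 at the Fcmr+/+ makeup, 1.86 without the dividing-like cluster, 1.81 without cells holding a neutrophil UMI and 1.39 without clusters 4 and 7. For Iigp1 the range was 2.92 to 4.68, for Irgm1 0.41 to 1.18, for Irgm2 0.67 to 1.36, for Igtp 0.72 to 1.82, for Ifi47 0.60 to 1.47, for Tgtp1 0.34 to 5.15 and for Tgtp2 1.37 to 3.41, the lowest of both Tgtp genes with 1 CPM added.

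Genes at least 2-fold higher numbered 46 at 20 CPM or more and 976 with any gene found in 3 cells, against 86. The family sum includes Iigp1, and a sum without Iigp1 was not formed. In the main clusters the sum and Iigp1 were higher in Fcmr-/- cells in 11 of 11. Irgm1 was higher in 8, Igtp in 9, and Irgm2 and Ifi47 in 10 each. The family was higher in 6 of 6 clusters at resolution 0.4 and 13 of 13 at 1.2. It was higher in 11 of 11 without the listed interferon genes among the variable genes, where unlisted interferon genes could remain. With members among the variable genes it was higher in 9 of 10, and with 20 components in 10 of 11. The span of clusters in Fcmr-/- cells was 10.2-fold at resolution 0.4 and 33.1-fold with 20 components. Median correlations were 0.193 (Fcmr+/+) and 0.405 (Fcmr-/-) in unthinned counts, and 0.0243 and 0.0932 within clusters. The median of guanylate-binding proteins was 1.90 with 1 CPM added, and that of type I interferon signaling 0.42 at 20 CPM or more. Of the 10 genes most alike, 2 were kept over clusters and libraries. Without cells holding a T and NK cell UMI, the family's interval lay above 0 in 8 clusters, against 9 with them, as cluster 8 (log2 ratio 0.27, -0.01 to 0.54) passed below. The causes were not tested.

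No paired analysis was possible because each genotype had 1 library, and for the same reason leaving out a replicate was not an option. Low counts limit Tgtp1, Tgtp2 and clusters with few Fcmr+/+ cells.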
